A study of Mus musculus with 864 samples.

Results

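The transcription factors described here are 10 genes that give sensory neurons of the dorsal root ganglion their identity: Pou4f1, Isl1, Pou4f2, Runx1, Prdm12, Runx3, Etv1, Maf, Zfp521 and Bhlha9. They were chosen by name, as 10 of the 23281 genes in the table, and each had 1 row. Their levels were read in the wells labelled as holding 1 cell that had 1000 or more genes above 0, which were 86.9% of the wells so labelled. The cells came from 6 lumbar ganglia (levels L4 to L6) of C57/Bl6 mice aged 6 to 8 weeks, with no transgene or other treatment named, and were picked by hand with a glass capillary after enzymatic dissociation. Picking took place in session A at room temperature from males and females, in session B at room temperature from males, and in session C on a cooled stage from males and females. These 5 combinations of session and sex are called preparations 1 (A, male), 2 (A, female), 3 (B, male), 4 (C, male) and 5 (C, female). The labels name no animal, so the preparation is the replicate throughout. How many mice each one holds is not given in the sources used here. P-values between groups of cells measure how their differences vary from preparation to preparation, with each preparation's own level removed as a block. Those for sex and temperature measure the spread between preparations.

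Sensory neurons are born with a shared programme, in which the homeodomain factors Pou4f1 (Brn3a) and Isl1 close the neurogenic phase and open the sensory one. Later factors then divide the lineage: in mouse mutants Prdm12 is needed for nociceptors to form, Runx1 for the nonpeptidergic nociceptors and their receptors and channels, Runx3 and the ETS factor Etv1 for proprioceptors, which report muscle stretch, and Maf for mechanoreceptors of touch. Zfp521 is a zinc finger protein known from early neural differentiation, Bhlha9 is a basic helix-loop-helix factor known from limb development, and Pou4f2 (Brn3b) is the relative of Pou4f1 best known from retinal ganglion cells.

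Windows around annotated starts are shown for the Runx pair, whose levels differed between neuron types, and for Bhlha9 and Pou4f2, which were both highest in TH-like cells. They are RefSeq sequences on GRCm38.p6, from 250 bases before to 50 after a start, 5′ to 3′ on the gene's strand, and are credited to that build because the deposited table, made on mm9, holds no coordinates. RefSeq windows were at hand for 8 of the 10 factors, 11 windows in all, with none for Maf and Zfp521. For Runx1 and Runx3 the window at the upstream of their 2 starts is shown, with matches to the Runx motif TGTGGT, searched on both strands, in capitals. For Bhlha9 and Pou4f2 the capitals mark matches to the E-box CANNTG, the letters that basic helix-loop-helix proteins such as Bhlha9 are known to read.
Runx1 chr16:92826025-92826324 (-): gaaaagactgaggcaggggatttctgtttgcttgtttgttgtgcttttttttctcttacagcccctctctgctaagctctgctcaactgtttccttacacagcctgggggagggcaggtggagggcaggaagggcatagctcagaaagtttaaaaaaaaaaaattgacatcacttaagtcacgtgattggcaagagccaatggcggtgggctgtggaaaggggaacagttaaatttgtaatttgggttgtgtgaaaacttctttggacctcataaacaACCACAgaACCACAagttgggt
Runx3 chr4:135120395-135120694 (+): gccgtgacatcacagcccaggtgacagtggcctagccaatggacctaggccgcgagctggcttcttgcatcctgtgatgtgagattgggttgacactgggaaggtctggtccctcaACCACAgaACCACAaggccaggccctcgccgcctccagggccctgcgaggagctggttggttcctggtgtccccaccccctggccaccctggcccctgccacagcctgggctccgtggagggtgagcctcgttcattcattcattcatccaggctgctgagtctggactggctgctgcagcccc
Bhlha9 chr11:76672220-76672519 (+): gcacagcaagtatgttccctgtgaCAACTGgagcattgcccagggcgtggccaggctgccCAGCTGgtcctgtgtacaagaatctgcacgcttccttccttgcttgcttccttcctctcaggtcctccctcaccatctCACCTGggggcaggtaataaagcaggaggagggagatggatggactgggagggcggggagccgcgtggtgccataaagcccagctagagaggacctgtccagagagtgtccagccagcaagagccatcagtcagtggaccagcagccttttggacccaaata
Pou4f2 chr8:78436598-78436897 (-): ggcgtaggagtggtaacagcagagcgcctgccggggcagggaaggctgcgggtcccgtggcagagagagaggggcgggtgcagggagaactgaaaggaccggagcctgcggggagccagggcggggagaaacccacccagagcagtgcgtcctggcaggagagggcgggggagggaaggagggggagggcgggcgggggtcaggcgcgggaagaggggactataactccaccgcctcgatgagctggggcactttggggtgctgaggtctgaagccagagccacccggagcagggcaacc
Both Runx windows hold the same run of 18 bases, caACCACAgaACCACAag, with 2 matches in the opposite orientation set 2 bases apart. The inner 14 bases, ACCACAGAACCACA, occur in 4 of 32851 RefSeq windows on either strand, from 4 genes, while a single match occurs in 16.8% of them. Of the 11 windows of the factors, 3 hold a Runx match, which are these and the first window of Etv1. The Bhlha9 window holds 3 E-boxes and that of Pou4f2 none; 7 of the 11 windows and 72.3% of all windows hold at least 1. No match overlapped another motif in the 4 windows shown. A match describes the letters only, and the table gives 1 value per gene, so which start a cell used was not measured.

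Cells were grouped without using any of the 10 factors, by clustering on 2 random sets of the other genes and naming clusters from marker genes. In preparations 1 to 5 this gave 56, 18, 42, 21 and 7 NF-like cells (neurofilament-rich, the class of large myelinated touch and stretch neurons) and 56, 13, 34, 38 and 18 NP-like cells (nonpeptidergic nociceptors and itch neurons). There were 21, 0, 28, 18 and 3 PEP-like cells (peptidergic nociceptors) and 72, 13, 59, 77 and 32 TH-like cells (tyrosine hydroxylase neurons, known as C-fibre low-threshold mechanoreceptors). A further 43 cells were non-neuronal and 25 had no class. Both gene sets gave 96.4% of cells the same class. NF-like cells had the most genes per cell (median 5351) and PEP-like and non-neuronal cells the fewest (2350 and 1474), and values are shares of each cell's reads. Median reads per cell were 15421 and 15597 in preparations 1 and 2, 198657 in preparation 3, 1526078 in preparation 4 and 2573228 in preparation 5. Session C, cooling and the greatest depth therefore cannot be told apart. The non-neuronal cells came from preparations 3 to 5 alone, with 7, 24 and 12. The pan-neuronal markers summed to 21568 to 40202 RPM (a gene's reads scaled to a fixed total per well) in neuron classes and to 1867 to 7971 RPM in non-neuronal cells. In PEP-like cells satellite glia markers reached 7988 RPM and Schwann markers 6994 RPM in 1 preparation. In TH-like cells Schwann markers summed to 1315 to 2011 RPM, inside the 1115 to 3076 RPM of non-neuronal cells. Satellite glia markers reached 1206 RPM in NF-like, 1585 RPM in NP-like and 1959 RPM in TH-like cells, against 8704 RPM or more in non-neuronal cells. The part of these markers in neuronal values was not tested.

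Pou4f1 was the most widely detected of the 10 factors and reached its highest level in TH-like cells. Its mean there was 745.9, 658.9, 532.7, 614.9 and 681.5 RPM in preparations 1 to 5. The 14 other neuronal values lay between 148.7 and 349.7 RPM: NF-like cells had 252.6, 167.2, 184.8, 232.3 and 156.7 RPM in the same order, and NP-like cells 200.6, 207.4, 157.03, 174.4 and 278.6 RPM. PEP-like cells had 285.8, 148.7, 349.7 and 232.1 RPM in preparations 1, 3, 4 and 5. Every TH-like value lay above every value of the other neuron classes, with means of 646.8 ± 79.4 RPM (SD, n = 5) in TH-like cells against 254.1 ± 85.1 RPM (SD, n = 4) in PEP-like cells, the next in order. PEP-like, NP-like and NF-like values overlapped. In limma's test on log2(mean RPM + 5), each class against the mean of the other 3, Pou4f1 was higher in TH-like cells (log2 difference 1.58, SE 0.18, adjusted p = 6.61e-07). It was lower in NF-like cells, with a log2 difference of -0.67 (SE 0.18, adjusted p = 0.00944), and in NP-like cells, with -0.63 (SE 0.18, adjusted p = 0.0190), comparisons whose other side includes the TH-like cells. The NP-like call was lost without preparation 1, 3 or 4 (adjusted p 0.00471 to 0.141 over the preparations left out). Both lower calls were also lost in edgeR (adjusted p = 0.320 in NF-like and 0.163 in NP-like cells) and with wells of 2000 or more genes (-0.31, adjusted p = 0.331, and -0.35, adjusted p = 0.301). The NF-like difference was -0.09 (adjusted p = 0.784) with the mean of log2 values over cells and lost its call with no replicate block (adjusted p = 0.0529). PEP-like cells, not called at -0.28, were called lower in edgeR (-0.85, adjusted p = 0.0363), with wells of 2000 or more genes (-1.27, adjusted p = 0.000383) and with the mean of log2 values (-1.07, adjusted p = 0.00646).

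Isl1 is the LIM-homeodomain partner of Pou4f1 in early sensory neurons. NF-like cells had 94.6, 182.9, 108.9, 163.2 and 84.2 RPM in preparations 1 to 5, and TH-like cells 90.2, 138.2, 71.8, 169.1 and 164.9 RPM in the same order. NP-like cells had 97.02, 51.6, 59.5, 110.1 and 111.4 RPM, and PEP-like cells 44.5, 49.8, 285.5 and 74.5 RPM in preparations 1, 3, 4 and 5. The ranges of all 4 neuron classes overlapped, and none of the 4 tests passed (log2 differences -0.37 to 0.35, SE 0.29 to 0.32, adjusted p 0.495 to 0.578). The spread was widest in PEP-like cells, where preparation 4 stood at 285.5 RPM and the others at 74.5 RPM or less. Other settings did give calls: Isl1 was lower in PEP-like cells with wells of 2000 or more genes (-1.08, adjusted p = 0.0464) and with the mean of log2 values over cells (-1.05, adjusted p = 0.00846), where it was also higher in NF-like cells (0.90, adjusted p = 0.00894).

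**Figure D1:**
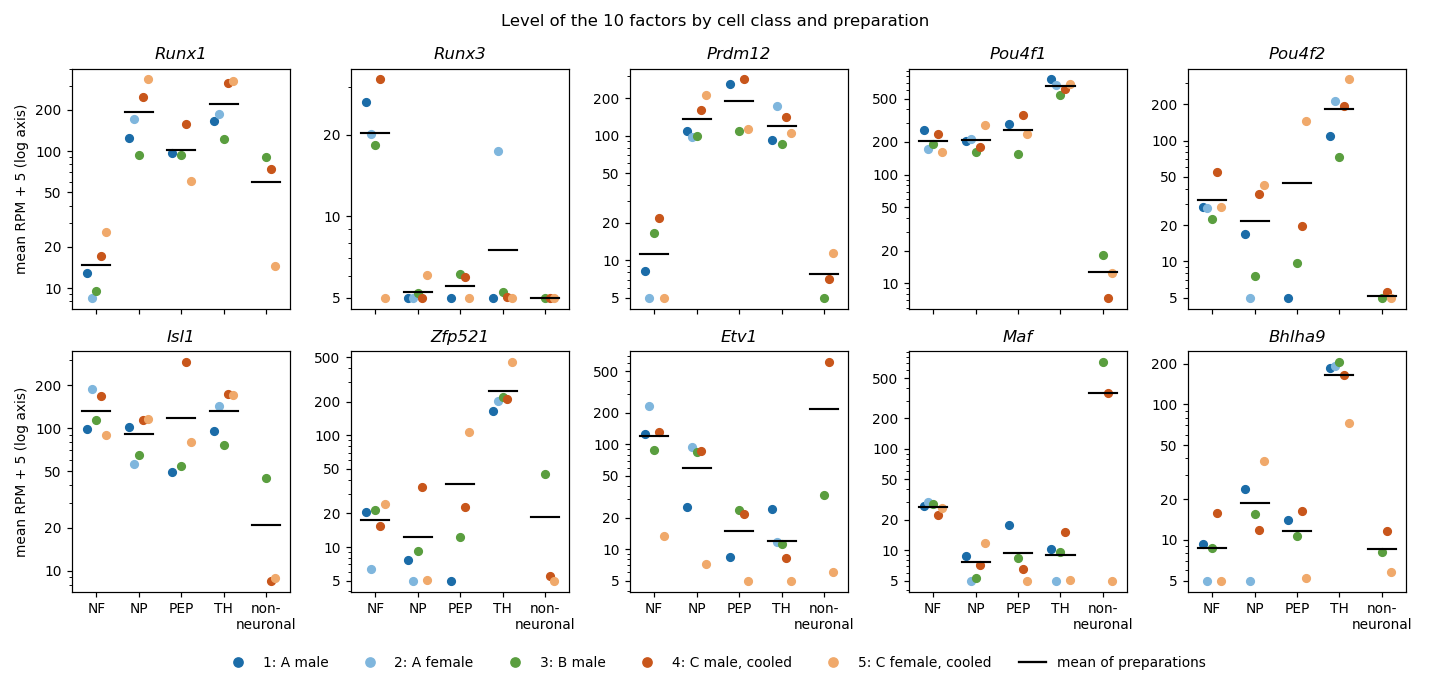
Mean level of each factor in each cell class (x axis) and preparation (coloured points), as mean RPM + 5 on a log axis, with the mean over preparations as a line. Zfp521, Bhlha9 and Pou4f1 points of TH-like cells lie above all points of the other neuron classes, and the Runx1 and Prdm12 points of NF-like cells lie below them.

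The nociceptor factors Runx1 and Prdm12 were both low in NF-like cells and shared by the other 3 neuron classes. For Runx1, NF-like cells had 7.98, 3.48, 4.44, 12.1 and 20.6 RPM in preparations 1 to 5. NP-like cells had 120.2, 167.5, 88.1, 241.9 and 328.5 RPM in the same order and TH-like cells 159.6, 181.6, 117.8, 308.6 and 320.5 RPM. PEP-like cells lay between, at 91.6, 89.4, 151.5 and 55.02 RPM in preparations 1, 3, 4 and 5. The highest NF-like value, 20.6 RPM, was under the lowest value of any other neuron class, 55.02 RPM, and the ranges of TH-like, NP-like and PEP-like cells overlapped in turn. Runx1 was lower in NF-like cells (log2 difference -3.46, SE 0.29, adjusted p = 2.33e-09), higher in NP-like cells by 1.46 (SE 0.29, adjusted p = 0.000901) and higher in TH-like cells by 1.79 (SE 0.29, adjusted p = 0.000113). In PEP-like cells it stood 0.21 (SE 0.32, adjusted p = 0.711) from the rest, a test that did not pass.

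Prdm12, a PR-domain protein whose loss in humans causes insensitivity to pain, had 3.22, 0, 11.5, 16.7 and 0.0118 RPM in preparations 1 to 5 in NF-like cells. The other classes ran from 80.98 to 277.8 RPM: 253.6, 103.8, 277.8 and 107.3 RPM in preparations 1, 3, 4 and 5 in PEP-like cells, and in preparations 1 to 5 103.99, 93.3, 94.6, 157.2 and 205.96 RPM in NP-like and 86.7, 167.2, 80.98, 135.6 and 100.4 RPM in TH-like cells. No NF-like value reached any of them, while PEP-like, NP-like and TH-like values overlapped. Prdm12 was lower in NF-like cells (log2 difference -3.84, SE 0.34, adjusted p = 7.84e-09) and higher in PEP-like cells by 1.67 (SE 0.38, adjusted p = 0.00642) and in NP-like cells by 1.20 (SE 0.34, adjusted p = 0.0219). The PEP-like call was lost without preparation 1, and the NP-like call without any one of preparations 1, 3, 4 and 5 (adjusted p 0.00553 to 0.0868 and 0.0307 to 0.108 over the preparations left out). Both were also lost in edgeR (adjusted p = 0.358 in PEP-like and 0.126 in NP-like cells). The same held in limma with each cell thinned to 3000 reads (adjusted p = 0.593 and 0.162). In TH-like cells the difference was 0.97 (SE 0.34, adjusted p = 0.0862) and did not pass, though all 5 preparations were higher. Of all genes tested, 5.33% were called lower in NF-like cells, and 0.423% had every NF-like value below every other neuronal value.

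A group of 3 factors were higher in NF-like cells or seen mainly there. Etv1 had 121.99, 229.7, 83.9, 127.2 and 8.48 RPM in preparations 1 to 5 in NF-like cells and, in the same order, 20.5, 89.8, 80.05, 81.96 and 2.16 RPM in NP-like and 19.1, 6.60, 6.17, 3.14 and 0 RPM in TH-like cells. PEP-like cells had 3.43, 18.8, 16.7 and 0 RPM in preparations 1, 3, 4 and 5. NF-like values were higher in 5 of 5 preparations, but across preparations the classes overlapped: the NF-like values of preparations 3 and 5 lay below the highest NP-like value. Etv1 was higher in NF-like cells (log2 difference 2.22, SE 0.43, adjusted p = 0.000498) and lower in TH-like cells, at -1.83 (SE 0.43, adjusted p = 0.00591), a call lost without preparation 2, 3 or 4 (adjusted p 0.00201 to 0.0725). The TH-like call was also lost in edgeR (adjusted p = 0.0992), and in limma with cells thinned to 3000 reads (adjusted p = 0.551) or no replicate block (adjusted p = 0.0898). Of all genes tested, 8.72% were called higher in NF-like and 3.43% lower in TH-like cells.

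Maf, a basic leucine zipper factor, varied little between preparations of NF-like cells, at 22.003, 24.8, 23.8, 17.4 and 21.4 RPM in preparations 1 to 5. Values in NP-like, PEP-like and TH-like cells ran from 0 to 12.8 RPM, so the NF-like range of 17.4 to 24.8 RPM did not overlap them, which held for 1.35% of genes on the higher side. The mean was 21.9 ± 2.84 RPM (SD, n = 5) against 4.46 ± 5.74 RPM (SD, n = 4) in PEP-like cells, the next neuron class, and Maf was higher in NF-like cells (log2 difference 1.79, SE 0.37, adjusted p = 0.00103). Maf passed the filter of 5 RPM through its NF-like values, since the other classes averaged 3.62 RPM; it was also called with no filter on low values, and not when cells were thinned to 3000 reads (0.98, adjusted p = 0.399). Runx3 had 21.4, 15.1, 13.3, 27.01 and 0 RPM in preparations 1 to 5 in NF-like cells. It was above 0 in 34 NF-like cells (23.6%, exact 95% interval 16.9 to 31.4%), and in 4 NP-like, 3 PEP-like and 5 TH-like cells. Its mean stayed under the filter of 5 RPM over all pseudobulks, so the tests between classes cover 9 of the 10 factors. The single preparation with a TH-like value above 0.244 RPM was preparation 2, at 12.4 RPM from 1 of 13 cells.

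TH-like cells stood apart by Zfp521, Bhlha9 and Pou4f2, besides Pou4f1. Zfp521 had 161.1, 197.4, 217.7, 207.6 and 446.3 RPM in preparations 1 to 5 in TH-like cells, against 0 to 29.4 RPM in NF-like and NP-like cells and 0, 7.25, 17.6 and 101.4 RPM in preparations 1, 3, 4 and 5 in PEP-like cells. Bhlha9 had 180.7, 188.5, 200.003, 160.04 and 68.2 RPM in preparations 1 to 5 in TH-like cells and at most 33.1 RPM in any preparation of another neuron class. For both, every TH-like value lay above every other neuronal value, and 0.966% of genes tested did so. Pou4f2 had 104.6, 205.7, 67.7, 187.8 and 314.6 RPM in preparations 1 to 5 in TH-like cells, 23.2, 22.6, 17.3, 50.1 and 23.2 RPM in NF-like and 12.01, 0, 2.65, 31.1 and 37.5 RPM in NP-like cells in the same order. In PEP-like cells it had 0, 4.70, 14.8 and 139.6 RPM in preparations 1, 3, 4 and 5, and the last value, from 3 cells, overlapped the TH-like range.

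Zfp521 was higher in TH-like cells (log2 difference 4.12, SE 0.48, adjusted p = 1.26e-06), as were Bhlha9 (log2 difference 3.88, SE 0.43, adjusted p = 5.19e-07) and Pou4f2 (log2 difference 2.96, SE 0.45, adjusted p = 5.25e-05), each in 5 of 5 preparations. The mean levels were 246.01 ± 113.98 RPM (SD, n = 5) for Zfp521, 159.5 ± 53.1 RPM (SD, n = 5) for Bhlha9 and 176.1 ± 96.2 RPM (SD, n = 5) for Pou4f2. With Runx1 and Pou4f1, 5 of 9 tested factors were called higher in TH-like cells and 1, Etv1, lower. Of all genes, 8.34% were called in TH-like cells, 4.91% as higher, and 0.191% had every TH-like value below the other neurons. In NF-like cells 2 of 9 were higher and 4 lower, the last being Bhlha9 at -1.83 (SE 0.43, adjusted p = 0.00343), which edgeR did not call (adjusted p = 0.140). NP-like cells had 2 of 9 higher and 3 lower, among them Zfp521 at -2.14 (SE 0.48, adjusted p = 0.00319) and Pou4f2 at -1.48 (SE 0.45, adjusted p = 0.0328). The shares of all genes called higher and lower in NP-like cells were 5.34% and 5.84%. PEP-like cells had 1 of 9 higher, Prdm12, and 1 lower, Bhlha9 at -1.48 (SE 0.47, adjusted p = 0.0477), where 3.06% and 6.09% of all genes were called, 9.15% in all, and 0.544% had every PEP-like value below the other neurons. The lower calls of Bhlha9, Zfp521 and Pou4f2 are against a mean that includes the TH-like cells, where all 3 were highest. Bhlha9 averaged 13.8, 6.63 and 3.75 RPM in NP-like, PEP-like and NF-like cells. Outside TH-like cells, the neuronal ranges of each of the 3 factors overlapped.

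The NP-like Pou4f2 call was lost without preparation 2, 3 or 4 (adjusted p 0.0251 to 0.204), and the PEP-like Bhlha9 call without any one of preparations 1, 3, 4 and 5 (adjusted p 0.0374 to 0.138). EdgeR called neither Pou4f2 nor Zfp521 in NP-like cells (adjusted p = 0.349 and 0.283). With cells thinned to 3000 reads, limma gave -0.33 (adjusted p = 0.875) and -2.09 (adjusted p = 0.0924) for them. Without preparation 5 and its 3 PEP-like cells, Pou4f2 and Zfp521 were called lower in PEP-like cells, at log2 differences of -2.01 (adjusted p = 0.0121) and -1.73 (adjusted p = 0.0350).

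**Figure D2:**
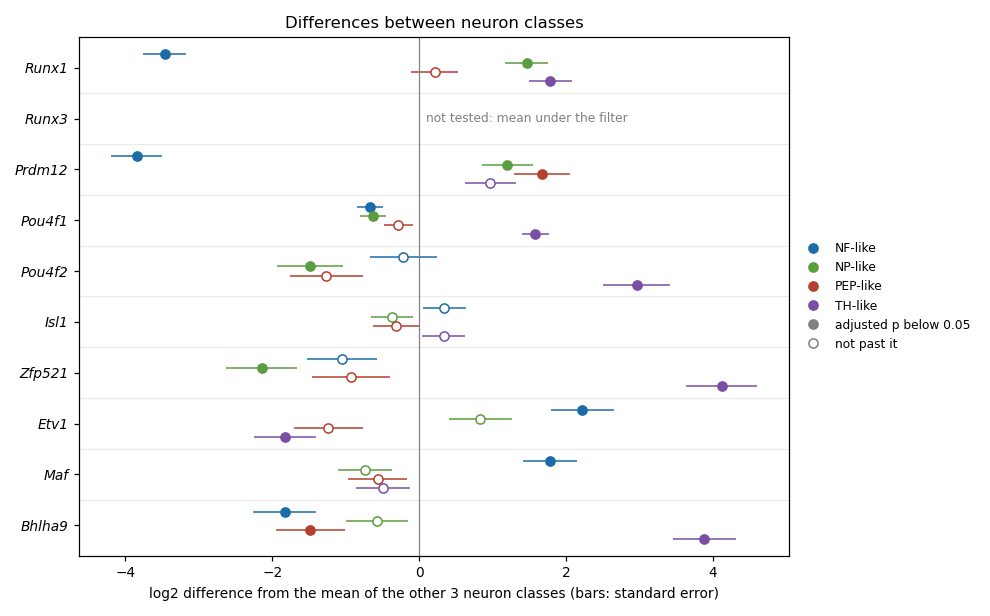
Difference of each neuron class from the mean of the other 3 for each factor, on the scale of log2(mean RPM + 5), with standard errors as bars and filled points where limma's adjusted p was below 0.05. Zfp521 (4.12), Bhlha9 (3.88) and Pou4f2 (2.96) stand farthest to the right, in TH-like cells, and Prdm12 (-3.84) and Runx1 (-3.46) farthest to the left, in NF-like cells.

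Inside the NF-like class, 46 cells carried the proprioceptor markers, 96 others did not, and 2 were placed in neither group; a preparation's mean needed 3 cells. The proprioceptor-like cells held most of the Runx3 signal: 58.8, 45.4, 31.2 and 113.2 RPM in preparations 1 to 4, against 0.717, 0, 5.26, 0.0332 and 0 RPM in preparations 1 to 5 in the other NF-like cells. Runx3 was above 0 in 28 of 46 proprioceptor-like cells (60.9%) and 5 of 96 of the others (5.21%). Etv1 had 286.8, 521.1, 198.3 and 449.2 RPM in proprioceptor-like cells of preparations 1 to 4 and 30.4, 72.5, 32.7, 25.9 and 8.40 RPM in other NF-like cells of preparations 1 to 5. Isl1 followed the same split, with 151.7, 441.4, 127.7 and 321.4 RPM against 62.8, 58.5, 100.5, 100.7 and 112.5 RPM. Pou4f1 went the other way, with 133.6, 87.2, 96.8 and 101.4 RPM against 318.7, 206.97, 224.3, 279.5 and 185.1 RPM. For all 4 the means of the groups did not overlap, where 2.56% of genes had no overlap on the higher and 4.98% on the lower side. The 2 proprioceptor-like cells of preparation 5 gave no mean and are outside this statement. For Etv1, Runx3 and Isl1, the 7 NF-like cells there averaged 8.48, 0 and 84.2 RPM. The 5 of them that were not proprioceptor-like averaged 8.40, 0 and 112.5 RPM, so the 2 did not share the higher values. Pou4f1 did follow the split there, at 156.7 RPM against 185.1 RPM.

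Runx3 passed the filter only through the proprioceptor-like cells, so its log2 difference of 3.30 (SE 0.56, adjusted p = 0.00163) is given as a description. It was not called with no filter (adjusted p = 0.165), in edgeR (adjusted p = 0.112) or thinned (0.98, adjusted p = 0.764). Etv1 was higher in proprioceptor-like cells (log2 difference 3.03, SE 0.34, adjusted p = 3.08e-05), and so was Isl1 (log2 difference 1.49, SE 0.35, adjusted p = 0.0177). Pou4f1 was lower (log2 difference -1.25, SE 0.25, adjusted p = 0.00664). The 4 of 9 tested factors past the threshold include Runx3, whose call carries no weight because of the filter. Of all genes, 5.19% were called, 1.7% higher and 3.49% lower, in a fit with 3 residual degrees of freedom. The Isl1 call was lost without preparation 2 or 4 and the Pou4f1 call without preparation 1 (adjusted p 0.00291 to 0.121 and 0.00655 to 0.0512 over the preparations left out). With no filter on low values, and thinned to 3000 reads per cell, none of the 4 was called (unfiltered adjusted p 0.0987 for Etv1 and Pou4f1 and 0.391 for Isl1), and edgeR did not call Isl1 (adjusted p = 0.0796). Maf stood at 15.9 ± 7.95 RPM (SD, n = 4) in proprioceptor-like and 26.6 ± 4.28 RPM (SD, n = 5) in other NF-like cells, and its difference of -0.63 (SE 0.50, adjusted p = 0.580) did not pass. Among the other NF-like cells, the 12 of the Htr3a type had Maf above 0 in 75.0% of cells and Pou4f1 and Isl1 in every cell. The 16 of the Calb1 type had Pou4f1 in every cell, Pou4f2 in 75.0% and Zfp521 in 62.5%. These shares use all reads, and the part of depth in them was not tested. Over both gene sets, median reads of the clusters so named were 83098 and 805767 for the Htr3a type and 58987 to 2670015 for the Calb1 type. Those of proprioceptor-like clusters were 23307 to 1223083.

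Between the finer types of NP-like cells, Etv1 values stood farthest apart. The 24 pruriceptor-type cells, which carry itch receptors and peptides, had 81.6, 247.2 and 459.2 RPM in preparations 1, 3 and 4, and the 41 Mrgprd-type cells, the common nonpeptidergic nociceptors, had 6.61, 4.85 and 0.0233 RPM in preparations 1, 3 and 5. Etv1 was above 0 in 83.3% of the former and 14.6% of the latter cells. Runx1 ran the other way, with 127.5, 115.3 and 467.1 RPM in Mrgprd-type cells and 35.9, 65.2 and 112.3 RPM in pruriceptor-type cells, in 90.2% and 41.7% of cells. Pou4f1 had 279.3, 192.1 and 332.6 RPM against 89.4, 132.1 and 129.5 RPM. Prdm12 overlapped, at 171.2 ± 94.4 RPM (SD, n = 3) and 185.1 ± 73.03 RPM (SD, n = 3).

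Values of Etv1, Runx1, Pou4f1 and Pou4f2 did not overlap between the NP-like types, as held for 7.73% of genes on the higher and 5.57% on the lower side. The types shared preparations 1 and 3 alone, the fit had 1 residual degree of freedom, and limma called 0 of 8 tested factors and 0.465% of all genes. At an unadjusted p of 0.05, 3 of the 8 passed, and edgeR on the recovered reads called 1. The Etv1 difference was -3.79 (SE 0.81, adjusted p = 0.109), and it passed in edgeR at -5.60 (adjusted p = 5.61e-06). Preparations 4 and 5 each gave a mean for only 1 of the types, so they add nothing to this difference. Without 4 or 5 it stayed at -3.79, though limma's adjusted p became 0.0217 and 0.00889. Among PEP-like cells, the 24 of the Tac1 type had Isl1 above 0 in 16.7% and the 16 of the Nefh type in 68.8% of cells, with means of 10.2 and 89.2 RPM over 2 preparations each. Those types shared preparation 3 alone and were not tested, and 30 PEP-like cells had no type.

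**Figure D3:**
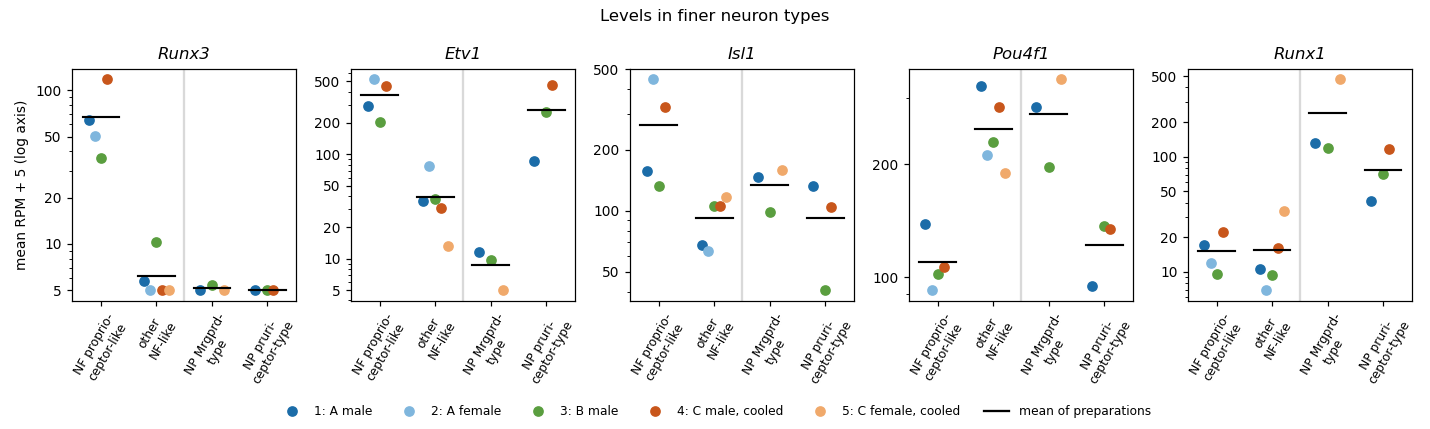
Level of 5 factors (mean RPM + 5, log axis) in proprioceptor-like and other NF-like cells and in both NP-like types, by preparation, with the mean as a line. Runx3, Etv1 and Isl1 are higher and Pou4f1 lower in proprioceptor-like cells, and Etv1 (81.6 to 459.2 RPM) is higher in pruriceptor-type than in Mrgprd-type cells (0.0233 to 6.61 RPM).

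Non-neuronal cells, whose cluster was named fibroblast-like with both gene sets and had Sparc and collagen genes among its leading genes, held little of most of the factors. Pou4f1 had 13.3, 2.36 and 7.49 RPM in preparations 3, 4 and 5 and Isl1 40.02, 3.54 and 3.91 RPM, both below every neuronal value, as were 10.1% of genes. Prdm12 had 0, 2.02 and 6.47 RPM and Pou4f2 0, 0.584 and 0 RPM in the same preparations. Runx3 was above 0 in 0 of 43 cells, which allows a share of up to 6.98% of cells with a read. Against the mean of the 4 neuron classes, Pou4f1 was lower (log2 difference -4.53, SE 0.34, adjusted p = 5.02e-09), as were Prdm12 (-3.32, SE 0.50, adjusted p = 1.71e-05), Pou4f2 (-3.08, SE 0.62, adjusted p = 0.000397) and Isl1 (-2.90, SE 0.53, adjusted p = 0.000168). The median of all genes was itself -1.03, and 49.2% were called, 40.1% as lower; all 4 values lie further down than that median. Zfp521 (-1.81, SE 0.72, adjusted p = 0.0424) and Bhlha9 (-1.40, SE 0.53, adjusted p = 0.0326) were also called, nearer to that median. The Zfp521 call was lost without preparation 1, 2, 4 or 5 and the Bhlha9 call without 1, 3 or 4 (adjusted p 0.00689 to 0.245 and 0.0261 to 0.125). Preparations 1 and 2 hold no non-neuronal cells. Without 1 or 2 the Zfp521 difference stayed at -1.81, and without 1 that of Bhlha9 stayed at -1.40.

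Maf and Etv1 were each carried by few non-neuronal cells. Maf had 711.4, 348.2 and 0 RPM in preparations 3, 4 and 5, from 9 of 43 cells with a median of 929 RPM where detected. It was called higher than in neurons (log2 difference 3.38, SE 0.79, adjusted p = 0.00158; 9.01% of genes were, and 1.6% had no overlap with neurons on the higher side), a call lost without preparation 3 or 4 (adjusted p 1.59e-06 to 0.0804). With wells of 2000 or more genes the direction reversed (-0.28, adjusted p = 0.750). Maf is also a known factor of macrophages: of the 6 non-neuronal cells with 3 or more immune markers 2 had Maf, at a mean of 979.7 RPM over the 6, and of the other 37 cells 7 did, at 201.6 RPM. The 9 immune markers summed to 3.74 to 6825 RPM over these preparations, with C1qa at 0, the fibroblast markers to 15253 to 24279 RPM and the satellite glia markers to 8704 to 44826 RPM; their part in the Maf value was not tested. Etv1 had 27.9, 604.3 and 1.05 RPM, and the middle value rests on 1 cell at 14469 RPM, and its mean over preparations was 211.1 ± 340.8 RPM (SD, n = 3), smaller than its SD. Neither Etv1 (1.20, SE 0.68, adjusted p = 0.140) nor Runx1 (-1.0, SE 0.52, adjusted p = 0.110) passed the test, though Runx1 did without preparation 3 (-1.83, adjusted p = 0.0144) and with the mean of log2 values over cells (-1.87).

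Shares of cells with a read did not always follow the order of the levels, and they depended on depth. With all reads, Pou4f1 was above 0 in 94.1% of TH-like, 92.4% of NF-like, 76.7% of NP-like and 68.6% of PEP-like cells, and in 25.6% of non-neuronal cells. Isl1 was above 0 in 86.1%, 72.7%, 66.04% and 45.7% of NF-like, TH-like, NP-like and PEP-like cells. Zfp521, Pou4f2 and Bhlha9 were above 0 in 71.9%, 70.4% and 66.8% of TH-like cells. When each cell was thinned to 3000 reads, which 98.6% of cells had, the TH-like shares became 68.1% for Pou4f1, 37.8% for Zfp521, 31.1% for Bhlha9 and 27.1% for Pou4f2. In NF-like cells the thinned share was 40% for Pou4f1 and at most 3.57% for the other 3. Runx1 kept its order when thinned, at 38.2% of TH-like, 34.2% of NP-like, 13.4% of PEP-like and 2.14% of NF-like cells. Runx3, at 60.9% of proprioceptor-like cells with all reads, was found in 9.09% of them after thinning. Reads carry no molecular identifiers, so these intervals and shares cover counting error only.

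In wells with no cell, 17 empty and 15 with medium, 7 of the 10 factors were above 0 at least once. Pou4f1 and Isl1 were in 5 of 32 such wells each, Runx1 in 3, Bhlha9 in 2, Prdm12, Zfp521 and Maf in 1, and Runx3, Pou4f2 and Etv1 in none. The most reads of a factor in any of the 24 control wells with recovered reads were 13 of Bhlha9 and 11 of Pou4f1. Beside the 15.6% of control wells with Pou4f1 or Isl1, the shares of non-neuronal cells were 25.6% and 30.2% (exact 95% intervals 13.5 to 41.2% and 17.2 to 46.1%), and the shares of neuron classes were 45.7% or more.

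**Figure D4:**
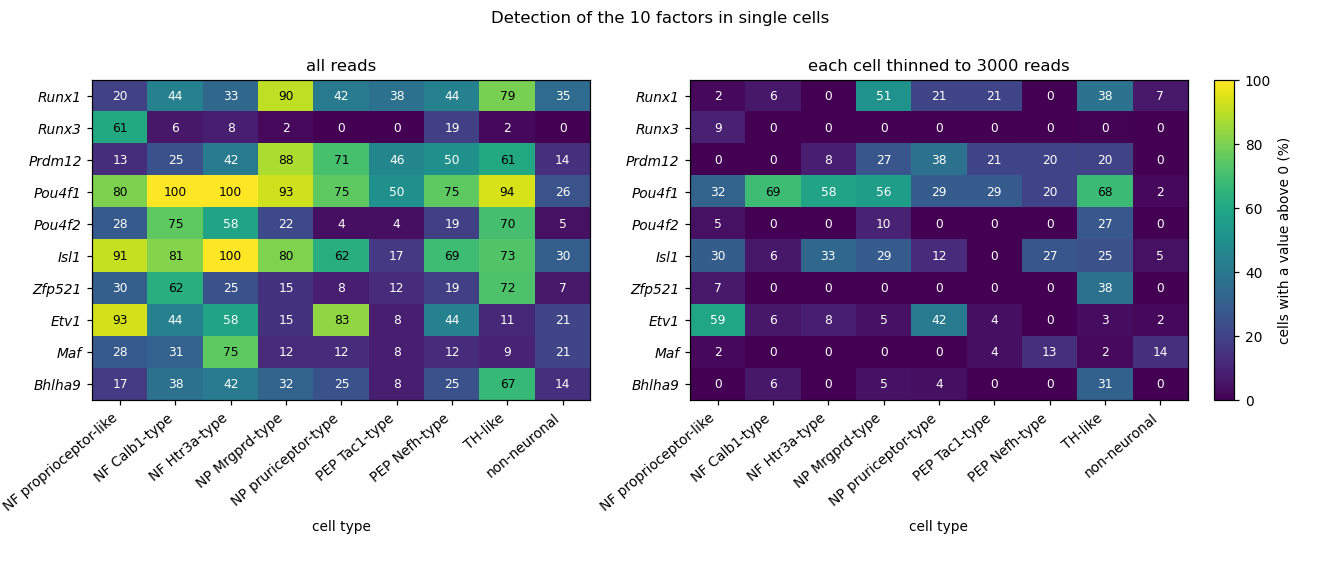
Share of cells with a value above 0 (colour and printed percent) for each factor (rows) in finer neuron types and non-neuronal cells (columns), with all reads and with each cell thinned to 3000 reads. Etv1 stands out in NF proprioceptor-like (93%) and NP pruriceptor-type cells (83%), and thinning lowers the shares, to 59% and 42% for these.

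Single cells carried several factors at once. The median number above 0 was 5 in TH-like and NF-like, 4 in NP-like, 3 in PEP-like and 2 in non-neuronal cells. At 3000 reads per cell it was 2 in TH-like cells, 1 in the other neuron classes and 0 in non-neuronal cells. Every TH-like cell had at least 1 of the 10, while 7 of 70 PEP-like cells had none. The pair Pou4f1 and Isl1 was above 0 together in 80.6% of NF-like, 69.2% of TH-like, 53.5% of NP-like and 38.6% of PEP-like cells. Runx1 and Prdm12 were together in 55.97% of NP-like, 52.6% of TH-like, 35.7% of PEP-like and 7.64% of NF-like cells. Within NP-like cells this pair was in 35 of 41 Mrgprd-type cells (85.4%) and 8 of 24 of the pruriceptor type (33.3%).

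Pou4f2, Zfp521 and Bhlha9, a set chosen after their values were seen, were all above 0 in 97 TH-like cells (38.3%, exact 95% interval 32.3 to 44.6%). The set was complete in 9.03% of NF-like, 3.14% of NP-like and 4.29% of PEP-like cells. At least 1 of the 3 was present in 95.3% of TH-like cells. Thinned to 3000 reads, the complete set was in 3.19% and at least 1 of the 3 in 70.1% of TH-like cells. Etv1 and Runx3 were together in 31 NF-like cells (21.5%), and 28 of these were proprioceptor-like. Each of the 28 proprioceptor-like cells with Runx3 also had Etv1. Over NF-like cells, 91.2% of those with Runx3 and 60.0% of those without it had Etv1. Runx1 and Runx3, which divide the sensory lineage in mouse embryos, were above 0 together in 19 neurons of all classes, 11 of them NF-like. The commonest full combination in TH-like cells was Runx1, Prdm12, Pou4f1, Pou4f2, Isl1, Zfp521 and Bhlha9, in 32 cells (12.6%) among 89 distinct combinations. In NP-like cells it was Runx1, Prdm12, Pou4f1 and Isl1, in 14 cells (8.81%). With all reads, NF-like cells had the most distinct combinations, 94, with at most 6 cells in any of them. This order depended on threshold and depth. At 10 RPM or more NF-like cells had 75 and TH-like cells 93, and thinned to 3000 reads they had 26 and 90.

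**Figure D5:**
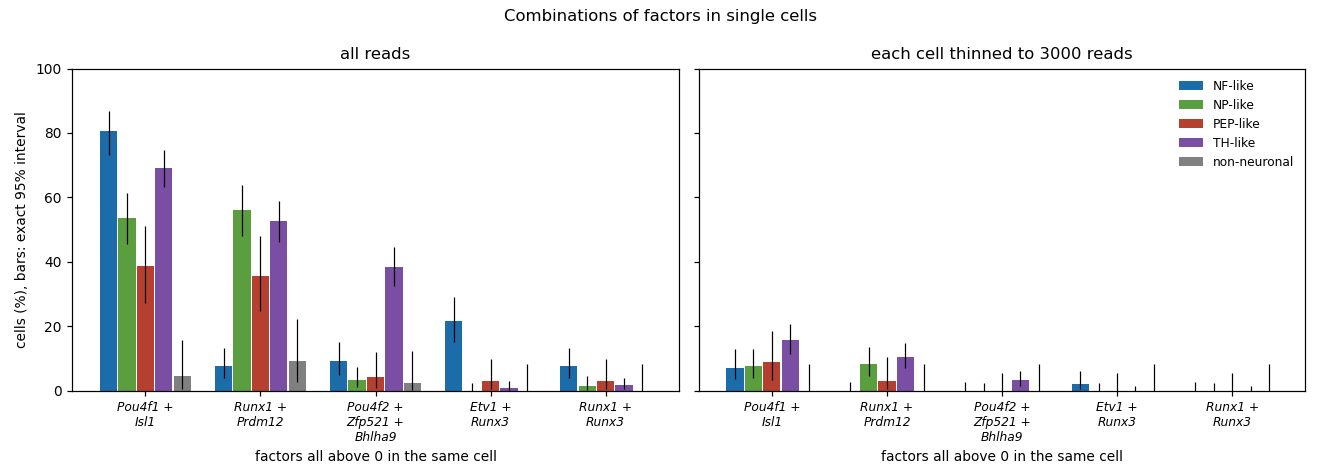
Share of cells in each class (bars, with exact 95% intervals) in which all factors of a set were above 0, with all reads and with each cell thinned to 3000 reads. Pou4f1 with Isl1 is highest in NF-like cells (80.6%), Runx1 with Prdm12 lowest in NF-like cells among neurons (7.64%), and the set of Pou4f2, Zfp521 and Bhlha9 highest in TH-like cells (38.3%).

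Sex and picking temperature were compared on the mean of log2 values over the neuron classes present in every preparation. Females against males within sessions A and C, with 1 residual degree of freedom, gave log2 differences of -0.98 (Etv1, SE 0.47, adjusted p = 0.717) to 0.18 (Runx1, SE 0.38). Limma called 0 of 10 factors and 0.113% of all genes, 0.0103% higher and 0.103% lower in females, and at an unadjusted p of 0.05, 1 factor passed, Etv1. The cooled session C against room temperature gave 1.28 (SE 0.36, adjusted p = 0.105) for Pou4f2, 1.04 (SE 0.32, adjusted p = 0.138) for Runx1 and -1.26 (SE 0.59, adjusted p = 0.295) for Etv1. No factor of the 10 was called, against 1.38% of all genes, and 3 passed an unadjusted p of 0.05: Pou4f2, Runx1 and Zfp521. No other tool was run on these comparisons. Without preparation 1, Pou4f2 was called (1.44, adjusted p = 0.0432), and without preparation 3, Etv1 (-1.47, adjusted p = 0.0319). Session, temperature and depth cannot be told apart here. Etv1 values were low in preparation 5, at 8.48 RPM in NF-like and 2.16 RPM in NP-like cells. Of its 7 NF-like cells 2 were proprioceptor-like, beside 20 of 56, 6 of 18, 13 of 42 and 5 of 21 in preparations 1 to 4. Of its 18 NP-like cells 0 were of the pruriceptor type. The part of cell types in the Etv1 values was not tested.

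Other factors of sensory lineages were described from a list of 55, of which 32 passed the filter. In NF-like cells 9 were higher and 7 lower, where 8.72% and 5.33% of all genes were, with a median log2 difference of -0.32 against 0.06 over all genes. The medians were -0.04 in NP-like, -0.12 in PEP-like, 0.28 in TH-like and -0.16 in proprioceptor-like cells, against 0.01, -0.23, 0.09 and -0.09 over all genes. Esrrg, an orphan nuclear receptor, rose by 2.75 (SE 0.34, adjusted p = 1.30e-06), with 35.4 ± 17.7 RPM against 0.600 RPM. Esrrg passed the filter only through its NF-like values, so this difference and its fall in TH-like cells are given as descriptions. Ldb2, a LIM-domain binding protein, Tshz2 and Insm1 had the largest falls, Ldb2 at -3.14 (SE 0.25, adjusted p = 7.39e-10). In NP-like cells 3 rose, with Ldb2 at 1.51 (SE 0.25, adjusted p = 9.60e-05), and 2 fell, near the 5.34% and 5.84% of all genes called, with the T-box gene Tbx3 at -2.36 (SE 0.38, adjusted p = 8.00e-05). In PEP-like cells 3 rose, with the zinc finger homeobox gene Zeb2 at 2.47 (SE 0.43, adjusted p = 0.000549), and 4 fell, against 3.06% and 6.09% of all genes, with the zinc finger gene Casz1 at -2.79 (SE 0.41, adjusted p = 7.25e-05). Casz1 was instead the largest rise of 4 in TH-like cells, at 2.62 (SE 0.37, adjusted p = 1.68e-05) and 291.3 ± 94.4 RPM against 61.6 RPM, beside Tbx3, Klf7 and Zfhx3, while Meis2 and Esrrg fell; 4.91% and 3.43% of all genes were called higher and lower there. Proprioceptor-like cells had Esrrg higher by 2.25 (SE 0.45, adjusted p = 0.00545) and the homeobox gene Cux2 by 1.93 (SE 0.51, adjusted p = 0.0351). They had 6 of 31 lower, with Tbx3 at -3.23 (SE 0.53, adjusted p = 0.00127) and the Etv1 relative Etv5 at -3.00 (SE 0.56, adjusted p = 0.00363). Of all genes, 1.7% were called higher and 3.49% lower there. Zeb2 averaged 3.98 RPM outside PEP-like cells, and Cux2 0.118 RPM in other NF-like cells. Both passed the filter only through the group where they rose, so their differences are given as descriptions. In proprioceptor-like cells Tbx3 and Etv5 averaged under the filter of 5 RPM. They passed it only through the other NF-like cells, so their falls there are also given as descriptions. With no filter on low values, limma called no gene between proprioceptor-like and other NF-like cells.

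Of 9 tested partners of Runx and LIM factors, 1 was called in NF-like, 2 in NP-like, 0 in PEP-like and 2 in TH-like cells, with medians of -0.19, -0.36, 0.08 and -0.01 against 0.06, 0.01, -0.23 and 0.09 over all genes. Of all genes, 14.1%, 11.2%, 9.15% and 8.34% were called in these classes, and counts of 0 to 2 among 9 genes are too few to set apart from those shares. Cbfb, the subunit that Runx proteins bind DNA with, was higher in NF-like cells by 1.38 (SE 0.26, adjusted p = 0.000445) and lower in NP-like cells, at -1.60 (SE 0.26, adjusted p = 8.80e-05), at 52.3 ± 14.9 RPM against 179.6 RPM. In proprioceptor-like cells Cbfb was higher than in other NF-like cells by 0.94 (SE 0.23, adjusted p = 0.0248). The corepressor genes Tle1 and Tle4 were higher in NP-like (1.56, SE 0.40, adjusted p = 0.00889) and TH-like cells (1.12, SE 0.33, adjusted p = 0.0329), in that order, and Tle4 was lower in proprioceptor-like cells (-2.92, SE 0.45, adjusted p = 0.000736). Lmo4, a LIM-only gene, was lower in TH-like cells (-1.24, SE 0.39, adjusted p = 0.0472).

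Of 13 genes known to need Runx1 in mouse mutants, 11 were tested; 9 of these also served to name the classes, so their direction is partly fixed by the naming. Of the 11, 9 fell in NF-like and 9 rose in NP-like cells, and TH-like cells had 1 higher, Gfra2, and 4 lower, with medians of -1.96, 3.10 and -1.21. Of the tested genes that were no naming markers, Trpa1, an irritant channel, was lower in NF-like cells (-2.43, SE 0.44, adjusted p = 0.000245). Trpm8, the cold and menthol channel, was higher in PEP-like cells (3.64, SE 0.44, adjusted p = 4.49e-06), at 89.5 RPM against 0.213 RPM. Trpm8 passed the filter only through its PEP-like values, so its difference is given as a description. The 5 genes that depend on Runx3 or Etv1 are all naming markers, and 4 rose in NF-like cells. In proprioceptor-like cells Spp1 rose by 4.26 (SE 0.45, adjusted p = 2.92e-05) while Ntrk2 and Ret fell. Ntrk2 averaged under 5 RPM there and passed the filter only through the other NF-like cells, so its fall is given as a description. Of 6 genes that need Maf, 2 were tested between classes, and Cacna1h, a T-type calcium channel and a naming marker, was higher in NF-like (1.57, SE 0.39, adjusted p = 0.00518) and in TH-like cells (2.26, SE 0.39, adjusted p = 0.000207). Among 8 tested trophic receptors, 3 were higher and 2 lower in NF-like cells (median 0.31), and Gfra3, the artemin receptor and no naming marker, was higher in PEP-like cells (4.83, SE 0.46, adjusted p = 1.44e-07) and lower in NF-like (-2.01, SE 0.42, adjusted p = 0.00107) and TH-like cells (-2.37, SE 0.42, adjusted p = 0.000285). Ngfr, the p75 receptor and no naming marker, was higher in NF-like (1.78, SE 0.37, adjusted p = 0.00101) and lower in NP-like cells (-3.24, SE 0.37, adjusted p = 4.87e-07).

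The genes whose pattern was most like that of each factor were found by Pearson's r of log2(mean RPM + 5) over 22 class-by-preparation pseudobulks, which share libraries and depth. For Bhlha9 they were Gm7271 (r = 0.92), Th (0.90, a naming marker) and Dgkk (0.89), for Zfp521 Slc17a8 (0.87, a naming marker), Wfdc2 (0.86) and Cckar (0.85), and for Pou4f2 Tox3 (0.91), Slc39a3 (0.91) and Cmpk2 (0.89). Runx1 was closest to Wbp5 (0.84), Rgs10 (0.84) and Atp1b3 (0.83), and Prdm12 to Celf6, Rcan3 and Dusp26 (each 0.91). Pou4f1 was closest to Sae1 (0.94), Ttll1 and Fam164a (each 0.93), and Isl1 to Aarsd1 (0.92), 2900011O08Rik (0.92) and Hars (0.91). Etv1 had the weakest likeness, with Srd5a1 (0.79), Ltbp3 (0.78) and Acsl1 (0.74). Maf was closest to Ptprj (0.91), Slc22a5 (0.90) and Alox5ap (0.89), all 3 of which were lower over the 19 neuronal pseudobulks, at 0.55, 0.48 and 0.64. Over these, r was 0.85, 0.77 and 0.59 for the genes closest to Pou4f1 and 0.75, 0.65 and 0.73 for those closest to Isl1. For the genes closest to the other factors it ran from 0.63 (Acsl1) to 0.94 (Atp1b3). Runx3 was under the filter. Among the factors themselves, Pou4f2 with Zfp521 and Pou4f1 with Isl1 had the highest r (each 0.82), and Prdm12 with Maf (-0.68) and Runx1 with Runx3 (-0.62) the lowest.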

How the data were processed

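Whole-cell RNA of single picked neurons, non-neuronal cells, wells with several cells and wells with none was converted to cDNA by template switching and sequenced from the 5′ end, per the labels' protocols. The authors deposited 1 table of RPM values per gene and well, that is, reads scaled to a fixed total per well, made with Bowtie on mm9 per the submitters' processing notes, whose version is not given in the sources used here. Rows that are copies of 1 gene were summed, which left 23281 genes. Values of 841 of 864 wells were whole multiples of what 1 read is worth (99.5% of values within 0.1), and these recovered counts from the authors' RPM gave the depth; 4 further columns of the deposited table could only be treated as a score. The kept wells held 2459 to 31963360 reads.

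Wells labelled as 1 cell with 1000 or more genes were kept. Wells with more than 1 cell were left out as labelled, and no doublet caller was run. The genes other than the 10 factors were split at random into 2 sets of 11664 and 11607, and each was clustered (600 variable genes, 15 principal components, 15 neighbours, Leiden 0.10.2, resolution 0.8, and 2.0 for finer types). Resolutions were set after several were tried, by how many cells could be named. Each gene was tested with labels from the set that does not hold it, and the factors with cells on which both sets concur. Classes rebuilt in this way may differ from those of the study.

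Means of 3 or more cells per class and preparation were tested with limma 3.58.1 (trend, robust, preparation as a block, two-sided) on log2(mean RPM + 5), for genes averaging at least 5 RPM, and Benjamini-Hochberg adjustment covered all genes tested, with a threshold of 0.05. Fold changes on this scale understate changes of low genes. EdgeR 4.0.16 was run on summed recovered counts as an alternative. The other tools were R 4.3.3, Python 3.11.15, numpy 2.4.6, pandas 2.3.3, scipy 1.17.1 and scikit-learn 1.9.0, and the tests were checked on simulated data. The block is the picking session and sex, per the labels. The factors and gene lists were chosen with earlier results of these data known. All 10 factors are named in every comparison; of the other lineage factors, up to 5 that rose and 3 that fell most past the threshold, the same way in every preparation, and up to 3 of the other lists. Intervals are exact binomial and cover counting error only.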

Additional observations from a re-analysis of the deposited data

Results flagged for a closer look

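Of 40 groups of 1 factor in 1 class with 4 or 5 preparations, 4 had a preparation standing far from the others, where chance flags about 1 in 20 groups. Runx3 in NP-like cells was 1.07 RPM in preparation 5, from 18 cells, against 0 to 0.229 RPM in the others. Runx3 in TH-like cells was 12.4 RPM in preparation 2, from 13 cells, against 0 to 0.244 RPM. Pou4f2 in NF-like cells was 50.1 RPM in preparation 4, from 21 cells, against 17.3 to 23.2 RPM. Bhlha9 in TH-like cells was 68.2 RPM in preparation 5, from 32 cells, against 160.04 to 200.003 RPM.

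The 33 multi-cell wells entered no comparison, and every factor was above 0 in a larger share of them than of the 32 wells with no cell. Runx1 and Pou4f1 were above 0 in 63.6% of these wells each, Isl1 in 60.6%, Prdm12 in 42.4% and Pou4f2 in 39.4%. Zfp521 and Maf were above 0 in 36.4% each, Bhlha9 in 33.3%, Etv1 in 18.2% and Runx3 in 6.06%.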

How the results depend on the processing

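Over the alternatives run, 1100 values of single factors were recomputed: 977 kept their direction and side of the threshold, 97 lost the call, 25 gained one and 1 reversed. The reversal was Maf in non-neuronal cells, at -0.28 (adjusted p = 0.750) with wells of 2000 or more genes. Calls kept under each of the 17 alternatives were Runx1 and Prdm12 in NF-like cells, Runx1, Pou4f1, Pou4f2, Zfp521 and Bhlha9 in TH-like cells, and Prdm12, Pou4f1, Pou4f2 and Isl1 in non-neuronal cells.

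Thinned to 3000 reads per cell, the factors called numbered 3 of 9 in NF-like cells (6 at full depth), 0 in NP-like (5), 0 in PEP-like (2) and 0 in proprioceptor-like cells (4). The share of TH-like cells with Pou4f2, Zfp521 and Bhlha9 together was then 3.19%, and with Pou4f1 68.1%. With sessions B and C alone the counts were 3, 1, 0 and 2 in the same order. EdgeR called 1 in NP-like, 1 in PEP-like and 2 in proprioceptor-like cells. With no filter on low values they were 3, 1 and 0, and with no replicate block 3 in NP-like and 1 in PEP-like cells. PEP-like cells had 1 with classes from gene set 1, 1 at a pseudocount of 1 RPM and 6 with the mean of log2 values over cells. Etv1 was the 1 factor called between the NP-like types with gene set 1, gene set 2, edgeR, the mean of log2 values or no replicate block. Leaving out preparations gave 2 to 4 in NP-like, 0 to 3 in PEP-like and 4 to 6 in non-neuronal cells, and 0 to 1 for cooling. Between NP-like types it gave 1, Etv1, in both fits possible, with its difference unchanged. The cause of these changes was not tested. The block moved no other count past 1.5 times.

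Genes called over the whole table also moved by more than 1.5 times. NF-like calls went from 14.1% of genes tested to 5.601% with sessions B and C, 6.46% thinned and 65.8% with the mean of log2 values, where 91.01% of calls were higher in place of 62.03% and the median gene shifted to 0.70. NP-like calls went from 11.2% to between 4.03% and 7.13%, TH-like from 8.34% to between 2.76% and 5.25%, and non-neuronal from 49.2% to 25.8%. PEP-like calls went from 9.15% to between 2.88% and 53.3%, with 3.32% of them higher at the upper end and 66.7% in edgeR in place of 33.4%. Proprioceptor-like calls went from 5.19% to between 0% and 3.49%, NP-like types from 0.465% to between 0% and 5.31%, sex from 0.113% to between 0.0537% and 0.175%, and cooling from 1.38% to between 0% and 7.22%. The sex comparison could not be fitted without preparation 1, 2, 4 or 5, nor that of NP-like types without 1 or 3 or with sessions B and C alone. Depth limits the low factors most: after thinning, 2.86%, 5% and 3.57% of NF-like cells had a read of Runx3, Maf and Pou4f2.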
